A study of Mus musculus with 60 samples.

Results

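The 35 genes described here encode the enzymes of cholesterol and fatty acid synthesis and the proteins that sense and pass on sterols. They were chosen as a list of gene symbols, matched to Ensembl gene IDs, and all 35 were found among the 55335 gene IDs and passed the minimum of 1 CPM (the count scaled to equal library totals) in at least 1 mouse, as did 15546 genes in all. RNA was sequenced from the kidneys of 60 male mice on the C57BL/6J background, housed in 12 h of light and 12 h of dark with free access to chow. The 30 cKOt mice carried floxed Bmal1 (Arntl) alleles, the Pax8-rtTA transgene, and the LC1 Cre transgene, and the 30 control mice were littermates with the floxed alleles alone. Both genotypes drank doxycycline (2 mg/ml with 20 mg/ml sucrose) for 2 weeks from the age of 8 weeks, which switches on Cre where Pax8 is active, in the renal tubule, and kidneys were taken a month after the treatment had ended. Kidneys were taken at ZT0, ZT4, ZT8, ZT12, ZT16, and ZT20 (zeitgeber time, hours after lights on), from 5 mice of each genotype at each time. The samples are named as renal tubule in the labels, whereas the methods describe frozen pieces of whole kidney, and markers of glomeruli, vessels, and stroma were present. The deletion was directed to the renal tubule, and whether cells outside it carried the deletion was not measured here. Of the cKOt mice at ZT16, the mouse numbered 4 is marked for removal in the study's sample sheet and was kept here, and values without it are given where they moved a result.

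Sterols and fatty acids are both built from cytosolic acetyl-CoA. In the mevalonate pathway acetyl-CoA is turned into isoprene units, which are joined to squalene, closed to a ring, and trimmed to cholesterol. Fatty acids are made by carboxylation of acetyl-CoA and repeated condensation with NADPH, and are then lengthened and desaturated. Both routes are under the control of the SREBP transcription factors, which are held in the endoplasmic reticulum with their escort SCAP by INSIG proteins when sterols are plentiful, and are released and cleaved when sterols are scarce. In the kidney, the proximal tubule burns fatty acids as its main fuel.

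Promoter sequences around the annotated starts (250 bases before to 50 bases after) were available for 28 of the 35 genes from RefSeq (GRCm38.p6), in 37 windows. They were searched on both strands for 4 short motifs, namely the E-box CACGTG, which the BMAL1:CLOCK dimer is known to bind, the sterol response element TCACNCCAC, the CCAAT box, whose factor NF-Y is known to act with SREBP, and the D-box TTANGTAA of the PAR bZIP factors. An E-box stood in 7 of the 37 windows (18.9%), against 7.15% of 32851 windows over all genes. These windows belonged to 6 genes, Hsd17b7, Insig1, Dhcr7, Sc5d, Elovl5, and Scap, the 2 windows of Scap overlapping and holding the same E-box, so that there were 6 distinct ones. In cKOt mice Scap was higher and Elovl5 did not pass, and neither is shown, nor is Dhcr7, which was lower. The CCAAT box was found in 24 windows (64.9%, against 37.4% of all windows), the sterol response element in 1 (2.7%, against 1.24%), that of Hmgcs1, and the D-box in none (2.32% of all windows). A match of letters describes the sequence and is not a shown site of binding. The 250 bases before the start are shown for 3 genes with an E-box and lower levels in cKOt mice (Insig1 at chr5:28071162-28071411, plus strand, Hsd17b7 at chr1:169969206-169969455, minus strand, and Sc5d at chr9:42264301-42264550, minus strand), for Hmgcs1 (chr13:119690101-119690350, plus strand) with its sterol response element, and for Idi1 (chr13:8885356-8885605, plus strand), the member with the largest increase in cKOt mice, which has neither. Capitals mark the motifs (CACGTG, TCACNCCAC, and CCAAT or its reverse complement ATTGG), and each sequence is written 5′ to 3′ on the strand of the gene.
Insig1: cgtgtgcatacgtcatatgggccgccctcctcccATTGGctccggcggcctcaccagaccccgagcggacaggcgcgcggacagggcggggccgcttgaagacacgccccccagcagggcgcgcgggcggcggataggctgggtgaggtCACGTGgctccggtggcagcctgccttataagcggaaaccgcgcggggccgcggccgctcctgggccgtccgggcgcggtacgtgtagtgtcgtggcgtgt
Hsd17b7: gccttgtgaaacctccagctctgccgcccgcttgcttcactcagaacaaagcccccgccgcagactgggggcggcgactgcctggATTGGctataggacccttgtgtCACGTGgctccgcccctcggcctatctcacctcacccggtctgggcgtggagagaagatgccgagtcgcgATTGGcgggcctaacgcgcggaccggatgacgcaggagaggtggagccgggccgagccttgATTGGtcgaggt
Sc5d: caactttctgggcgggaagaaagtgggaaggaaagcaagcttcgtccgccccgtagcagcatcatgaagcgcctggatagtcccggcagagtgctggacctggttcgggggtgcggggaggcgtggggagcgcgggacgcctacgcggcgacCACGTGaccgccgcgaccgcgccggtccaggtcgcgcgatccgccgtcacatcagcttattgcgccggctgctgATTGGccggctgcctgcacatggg
Hmgcs1: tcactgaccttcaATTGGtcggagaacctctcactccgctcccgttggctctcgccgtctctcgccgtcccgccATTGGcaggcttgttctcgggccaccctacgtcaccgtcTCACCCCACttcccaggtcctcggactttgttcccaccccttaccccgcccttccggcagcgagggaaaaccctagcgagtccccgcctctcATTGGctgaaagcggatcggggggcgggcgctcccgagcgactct
Idi1: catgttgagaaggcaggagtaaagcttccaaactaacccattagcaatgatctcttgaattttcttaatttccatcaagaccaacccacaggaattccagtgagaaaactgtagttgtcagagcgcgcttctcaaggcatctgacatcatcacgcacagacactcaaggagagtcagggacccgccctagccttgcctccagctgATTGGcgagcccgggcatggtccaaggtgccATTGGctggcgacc
The E-box began 101 bases before the start of Insig1, 143 bases before that of Hsd17b7, and 98 bases before that of Sc5d.

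The libraries held 17791420 to 20906706 counts on genes per mouse. Arntl, the targeted gene, spanned 1.93, 13.2, and 57.1 CPM (lowest, median, and highest of 30 mice) in control mice and 14.7, 20.4, and 26.8 CPM in cKOt mice. The wide daily range of the control mice was thus absent from the cKOt mice, whereas the median was not lower in them. The counts sum over the whole gene, so that they do not measure the deleted part alone. Markers of the proximal tubule summed to medians of 10670 CPM in control mice and 10430 CPM in cKOt mice. Per length of exon, the highest members were Me1 and Hmgcs1, with 187 and 181 RPKM (CPM per kilobase of exon, mean of the 2 genotype means), and the lowest were Acaca with 1.77 and Fdps with 0.159 RPKM. Fdps had only 3 to 43 counts per mouse, so its values carry large counting error, and its reads are uncertain where near-identical copies of the gene exist.

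Mean levels over the day were compared between cKOt and control mice first. In cKOt mice, most genes of sterol synthesis were lower, and Insig1 and the desaturase Scd1 had the largest decreases of the list, while Idi1 and Pmvk of the mevalonate pathway and the elongase Elovl6 were higher. By the quasi-likelihood test of edgeR, with p-values adjusted after Benjamini and Hochberg over all 15546 genes, 26 of the 35 members differed in their mean over 6 time points, 21 lower and 5 higher. Among all genes, 50% passed this test, 23.2% lower and 26.8% higher. The median log2 fold change (cKOt against control mice) was -0.15 over the members and 0.012 over all genes. With a fold change above 1.2 as a further condition, 10 members were lower and 3 were higher, which is 37.1% of the list, against 16.1% of all genes (8.16% lower and 7.9% higher). In bulk tissue, fewer cells of a type and less RNA per cell cannot be told apart.

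**Figure D1:**
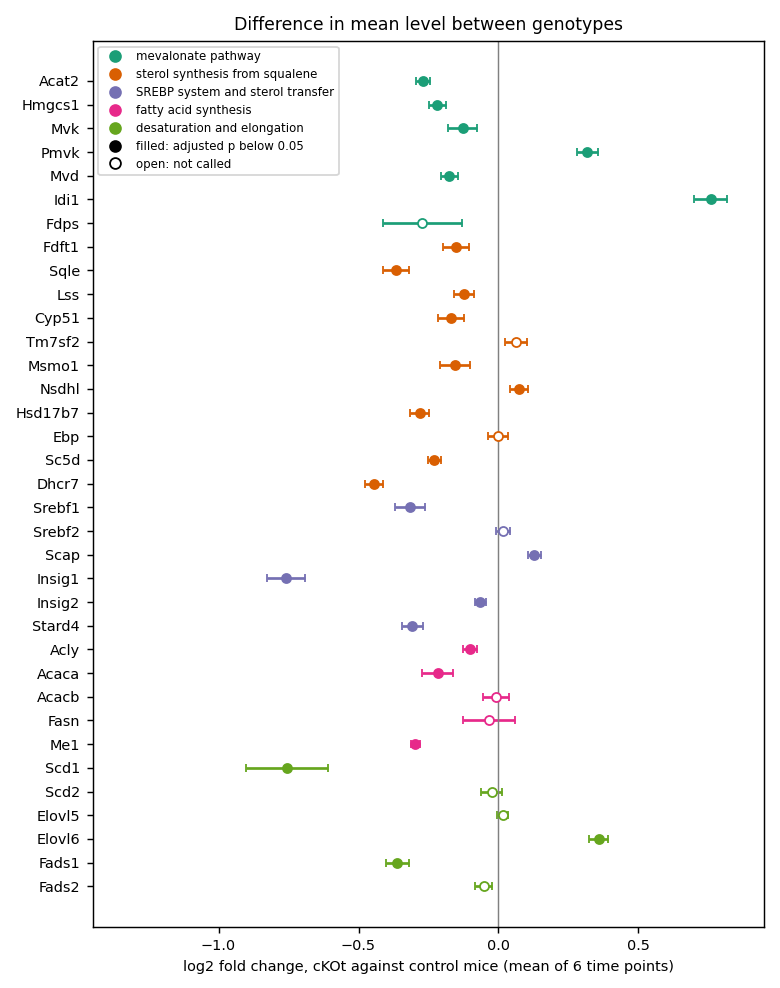
Log2 fold change of the mean level of each of the 35 genes in cKOt against control mice (x axis, bars are SE), in pathway order and coloured by role. Filled points passed the edgeR test at an adjusted p of 0.05: 21 of them lie to the left of 0 and 5 to the right, with Idi1 farthest right and Insig1 and Scd1 farthest left.

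In the mevalonate pathway, 4 of 7 genes were lower (Acat2, Hmgcs1, Mvk, and Mvd), 2 were higher (Pmvk and Idi1), and Fdps did not pass. The share called was 85.7%, against 50% of all genes. Idi1, the isomerase that makes the reactive isoprene unit, had 10.7, 22.4, and 38.6 CPM in the controls and 20.2, 38.6, and 58.6 CPM in cKOt mice (lowest, median, and highest). Means at ZT0, ZT4, ZT8, ZT12, ZT16, and ZT20 were 32.8 ± 4.47, 22.4 ± 1.02, 20.1 ± 2.08, 17.8 ± 2.86, 19.2 ± 6.02, and 26.1 ± 3.12 CPM in control mice (SD, n = 5 each, as in the group values of the other genes). In cKOt mice they were 42.8 ± 10.6, 45.2 ± 5.46, 31 ± 6.1, 34.2 ± 4.51, 37.1 ± 4.04, and 44.5 ± 10.3 CPM. Every group mean was higher in cKOt mice, and the mice of the 2 genotypes did not overlap at ZT4, ZT12, and ZT16. At ZT4 the control mice had 20.8, 22.3, 22.4, 22.7, and 23.6 CPM, and the cKOt mice had 38.6, 40.9, 45.4, 49.9, and 51.2 CPM. On the log2 scale the difference was 0.76 ± 0.059 (SE, adjusted p = 1.8e-16), and it was positive in all 6 library batches (0.56 to 1.03).

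Pmvk, the kinase just before the decarboxylation step, had 9.16, 12.3, and 17.6 CPM in the controls and 9.39, 15.8, and 18.5 CPM in cKOt mice. Its control means in order of time were 14.7 ± 2.14, 11.5 ± 0.732, 9.95 ± 0.679, 11.3 ± 1.63, 14 ± 1.58, and 13.6 ± 2.39 CPM. Those of cKOt mice were 16.8 ± 0.365, 13.6 ± 2.6, 14.8 ± 0.926, 14.9 ± 3.12, 16.2 ± 1.61, and 15.6 ± 2.98 CPM. The control mice thus had their lowest values around ZT8, where the cKOt mice stayed high. At ZT8 the control mice had 9.16, 9.57, 9.76, 10.4, and 10.9 CPM and the cKOt mice 13.7, 14.2, 14.6, 15.4, and 16 CPM, without overlap. The genotype difference in log2 was 0.32 ± 0.037 (SE, adjusted p = 2.2e-10).

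Acat2, the cytosolic thiolase that opens the pathway, had 111, 124, and 154 CPM in the controls and 86.7, 106, and 124 CPM in cKOt mice. Control means from ZT0 to ZT20 were 129 ± 8.89, 119.8 ± 7.1, 119 ± 10.5, 134 ± 14.1, 131 ± 7.79, and 130.1 ± 12.6 CPM. In cKOt mice the means were 111 ± 10.2, 107 ± 7.75, 92.9 ± 6.74, 104 ± 4, 108 ± 9.61, and 114 ± 5.56 CPM. The genotypes did not overlap at ZT8 and ZT12, and the log2 fold change was -0.27 ± 0.026 (SE, adjusted p = 2.8e-13). Hmgcs1, the synthase of the next step and the most abundant sterol gene of the list, fell from a mean of 889.9 ± 92.2 to 771 ± 80.1 CPM (SD, n = 30), a log2 fold change of -0.22 ± 0.03 (SE, adjusted p = 1.5e-08). The kinase Mvk and the decarboxylase Mvd changed less, by -0.13 ± 0.052 (SE, adjusted p = 0.038) and -0.18 ± 0.03 (SE, adjusted p = 2.0e-06). The call of Mvk was lost without RUVs factors, which stand for estimated unwanted variation (adjusted p = 0.118), and without the mice numbered 2, 3, or 4 (adjusted p = 0.0794, 0.177, and 0.141). It was also lost with batch in place of RUVs factors (adjusted p = 0.128), without the minimum of 1 CPM (0.0669), and with adipocyte markers as a covariate (0.0613). For Fdps, which joins isoprene units, the value was -0.27 ± 0.14 (SE, adjusted p = 0.11).

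Of the 11 genes from squalene to cholesterol, 8 were lower, 1 was higher (Nsdhl), and Tm7sf2 and Ebp did not pass. The share called was 81.8%, against 50% of all genes. The largest decrease was that of Dhcr7, the reductase of the last step from 7-dehydrocholesterol. It had 22.1, 27.2, and 35.1 CPM in the controls and 13.3, 19.6, and 25.1 CPM in cKOt mice. By time point, control means were 31.4 ± 2.27, 28.8 ± 2.75, 25.9 ± 1.87, 23.5 ± 1.62, 26.9 ± 2.05, and 27.2 ± 2.82 CPM. The cKOt means were 20.3 ± 3.31, 21 ± 1.68, 19.9 ± 2.26, 17.5 ± 2.75, 20.1 ± 1.28, and 20.4 ± 2.73 CPM. The cKOt mice lay below all control mice at 5 of 6 time points, the exception being ZT20. At ZT0 the values were 29.2, 30.1, 30.7, 31.7, and 35.1 CPM in control mice and 17.1, 17.9, 19.3, 22.1, and 25.1 CPM in cKOt mice. Expressed as log2 fold change, this was -0.44 ± 0.033 (SE, adjusted p = 5.8e-17).

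Squalene epoxidase, Sqle, catalyses the first step that needs oxygen. Its levels were 48.9, 72.9, and 108 CPM in the controls and 44.8, 57.4, and 78.8 CPM in cKOt mice (lowest, median, and highest). From ZT0 on, control means were 95.7 ± 12, 80.8 ± 10.9, 68.9 ± 4.65, 58.3 ± 5.91, 77.3 ± 12.8, and 75.8 ± 14.7 CPM. For cKOt mice they were 61.2 ± 12.2, 59.4 ± 6.78, 49.3 ± 4.59, 51.1 ± 1.29, 66 ± 6.47, and 67.5 ± 8.11 CPM. The genotypes did not overlap at ZT0, ZT4, and ZT8 and overlapped at the other times. At ZT0 control mice had 80.2, 87, 97.1, 106, and 108 CPM and cKOt mice 47.1, 53.8, 57.3, 72.4, and 75.3 CPM. The difference in log2 was -0.36 ± 0.047 (SE, adjusted p = 2.6e-09).

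Hsd17b7, a ketosteroid reductase of the demethylation steps, had 32.1, 37.5, and 51 CPM in the controls and 24.9, 32.3, and 43.3 CPM in cKOt mice. Over the 6 times the control means were 47 ± 2.73, 35.5 ± 3.68, 34.6 ± 1.17, 36.3 ± 3.05, 38.6 ± 3.87, and 42 ± 5.31 CPM. The corresponding cKOt means were 35.2 ± 6.72, 32.3 ± 2.54, 28.2 ± 2.02, 29.2 ± 2.1, 32.3 ± 2.3, and 35.9 ± 3.67 CPM. The cKOt mice were below all control mice at ZT0, ZT8, and ZT12, and the log2 fold change was -0.28 ± 0.034 (SE, adjusted p = 4.5e-10). Smaller decreases were found for Sc5d (-0.23 ± 0.023, adjusted p = 2.3e-12), Cyp51 (-0.17 ± 0.047, adjusted p = 0.0022), Msmo1 (-0.15 ± 0.054, adjusted p = 0.015), Fdft1 (-0.15 ± 0.045, adjusted p = 0.0043), and Lss (-0.12 ± 0.036, adjusted p = 0.0032), which desaturate, demethylate, form, and cyclize the sterol skeleton or its precursor. The call of Msmo1 was lost with batch in place of RUVs factors (adjusted p = 0.0561) and without the mice numbered 4 (adjusted p = 0.0728), and that of Fdft1 without the mice numbered 4 (adjusted p = 0.0637). Nsdhl was higher by 0.073 ± 0.031 (SE, adjusted p = 0.047), a call lost under most alternatives, with adjusted p of 0.0999 with DESeq2 size factors and 0.0558 without RUVs factors. Tm7sf2 and Ebp had 0.062 ± 0.038 (SE, adjusted p = 0.17) and -0.00069 ± 0.036 (SE, adjusted p = 0.99). Fdft1, Cyp51, and Srebf1 lie opposite to Ctsb, Akap9, and Rai1 on the other strand, and Tm7sf2 overlaps Vps51 on its own strand. The strand setting of the counting is not given in the sources used here, and Ctsb had a mean of 11200 counts against 526 for Fdft1.

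Among the regulators, Insig1 showed the largest decrease. It encodes the protein that retains SCAP and SREBP, and its own gene is a known SREBP target. Levels were 35.8, 63.7, and 128 CPM in the controls and 26.3, 40.1, and 70.2 CPM in cKOt mice. Control means from ZT0 to ZT20 were 103 ± 14.6, 60.8 ± 8.97, 51.9 ± 3.93, 44 ± 8.14, 83.2 ± 21, and 82.7 ± 18.8 CPM (SD, n = 5 each). Means of cKOt mice were 44.4 ± 16.1, 40.1 ± 2.84, 32.2 ± 5.23, 35.5 ± 6.67, 42.4 ± 5.77, and 48.8 ± 5.87 CPM. All cKOt mice were below all control mice at 5 of 6 time points, and the ranges overlapped only at ZT12, the time of lowest expression in control mice. At ZT0 the control mice had 91.3, 94.7, 97.9, 104, and 128 CPM and the cKOt mice 32.8, 34, 34.7, 50.5, and 70.2 CPM. On the log2 scale the difference was -0.76 ± 0.068 (SE, adjusted p = 3.0e-14) over the day, -1.21 (adjusted p = 1.7e-07) at ZT0, and -0.32 (adjusted p = 0.18) at ZT12. Within the 6 library batches it lay between -0.89 and -0.54.

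Insig2, the paralog, had 55.5, 61.8, and 79.6 CPM in the controls and 52.9, 61.3, and 70.4 CPM in cKOt mice, so that the ranges nearly coincided. Its control means were 62.8 ± 4.78, 61.6 ± 3, 61.2 ± 3.46, 69.1 ± 6.31, 60.6 ± 2.96, and 65.6 ± 7.8 CPM. Its cKOt means were 61.9 ± 2.84, 63.1 ± 4.22, 60.6 ± 4.67, 64.8 ± 3.96, 55.5 ± 1.44, and 60.7 ± 1.08 CPM. The genotype difference in log2 was small, -0.064 ± 0.02 (SE, adjusted p = 0.0054), and was no longer called without RUVs factors (adjusted p = 0.0802). The call was also lost with batch in their place (adjusted p = 0.127) and without the mice numbered 2 or 4 (adjusted p = 0.112 and 0.0556).

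Srebf1 encodes SREBP-1, which is best known for fatty acid genes. It had 12.9, 27.9, and 74.5 CPM in the controls and 9.23, 24, and 48.1 CPM in cKOt mice. Control means at the 6 times were 40.7 ± 9.3, 28.1 ± 6.06, 21.8 ± 3.1, 18.8 ± 4.45, 46.3 ± 15.8, and 32 ± 10.3 CPM. In cKOt mice Srebf1 had 26.4 ± 5.62, 19.2 ± 6.8, 19 ± 6.27, 17.1 ± 4.75, 36.1 ± 8.28, and 26.9 ± 5.79 CPM. The genotypes were apart only at ZT0, and there the ranges nearly touched. Control mice had 32.05, 32.9, 37.3, 49.8, and 51.4 CPM and cKOt mice 17.7, 24.1, 28.9, 29.1, and 31.97 CPM. Over the day the log2 fold change of Srebf1 was -0.32 ± 0.054 (SE, adjusted p = 2.2e-06), and it ran from -0.65 to 0.24 within batches, lower in 5 of 6. Srebf2, which encodes the factor best known for cholesterol genes, had 38.4, 57.7, and 88.2 CPM in the controls and 37.7, 59, and 77.5 CPM in cKOt mice. Its means were 67.8 ± 9.42, 65.8 ± 6.8, 51.8 ± 4.59, 45.8 ± 4.28, 63.4 ± 14.2, and 57.2 ± 9.63 CPM in control mice from ZT0 to ZT20. Those in cKOt mice were 66.7 ± 6.33, 54 ± 8.75, 60.5 ± 12.8, 46.9 ± 7.02, 63.8 ± 6.16, and 57.1 ± 8.61 CPM. The genotypes overlapped at every time, and the log2 fold change of Srebf2 was 0.016 ± 0.024 (SE, adjusted p = 0.6). The transcripts say nothing of the cleaved, active proteins.

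Stard4, a carrier of cholesterol between membranes and a known SREBP-2 target, had 87.8, 132, and 159.9 CPM in the controls and 80.7, 106, and 138 CPM in cKOt mice. The control means were 149 ± 12.2, 134 ± 13.5, 129 ± 8.12, 112 ± 20.7, 126 ± 24.8, and 131 ± 13.2 CPM in order of time. The cKOt mice had 109 ± 13.8, 115 ± 17.3, 94.9 ± 14.1, 101 ± 9.34, 107 ± 8.87, and 109.7 ± 12.6 CPM. The ranges were apart at ZT8 only, and the log2 fold change was -0.31 ± 0.037 (SE, adjusted p = 4.5e-10). Scap was slightly higher, by 0.13 ± 0.023 (SE, adjusted p = 6.3e-06), but the call was lost without RUVs factors (adjusted p = 0.14) and with batch in their place (adjusted p = 0.181).

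**Figure D2:**
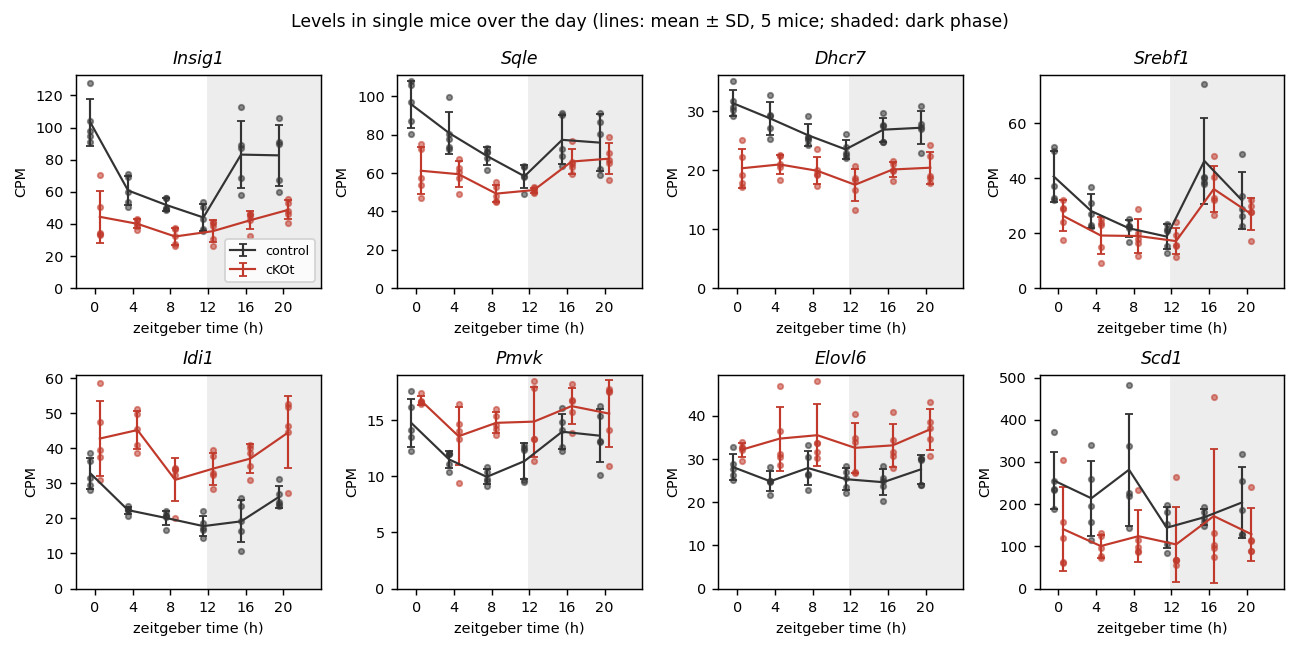
Levels (y axis, CPM) of Insig1, Sqle, Dhcr7, Srebf1, Idi1, Pmvk, Elovl6, and Scd1 by zeitgeber time (x axis, h) in control (black) and cKOt mice (red), points are mice, lines join means with SD (n = 5). Insig1 fell to 44.0 CPM at ZT12 in control mice and stood at 103 CPM at ZT0, when cKOt mice averaged 44.4 CPM, and Idi1 was higher in cKOt mice at every time.

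In fatty acid synthesis, 3 of 5 genes were lower and none was higher, so that 60% were called, against 50% of all genes. Malic enzyme Me1, which supplies NADPH, had 701, 785, and 924 CPM in the controls and 575, 644, and 721 CPM in cKOt mice. Its control means were 824 ± 59.3, 749 ± 28.9, 800.3 ± 20.1, 793 ± 65, 786 ± 53.6, and 796 ± 32.1 CPM from ZT0 to ZT20. The means of cKOt mice were 653 ± 49.4, 682 ± 6.34, 633 ± 31.4, 655 ± 23.2, 613 ± 25.1, and 647 ± 24.8 CPM. The cKOt mice were below all control mice at each of the 6 time points, which held for no other member. At ZT16 the values were 701, 773, 796, 822, and 838 CPM in control mice and 575, 609, 612, 629, and 642 CPM in cKOt mice. The log2 fold change, -0.30 ± 0.017 (SE, adjusted p = 1.5e-21), had the smallest adjusted p of the list. Acly, which makes cytosolic acetyl-CoA from citrate, and Acaca, which carboxylates it, changed by -0.10 ± 0.025 (SE, adjusted p = 6.1e-04) and -0.22 ± 0.056 (SE, adjusted p = 0.001). Acacb, the carboxylase of mitochondrial membranes, and Fasn, the synthase itself, had -0.0082 ± 0.046 (SE, adjusted p = 0.9) and -0.034 ± 0.093 (SE, adjusted p = 0.79). Fasn varied widely, between 37.2 and 168 CPM in control mice and between 26.4 and 188 CPM in cKOt mice.

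Of the 6 desaturases and elongases, Scd1 and Fads1 were lower, Elovl6 was higher, and Scd2, Elovl5, and Fads2 did not pass. The share called, 50%, was thus that of all genes (50%). Scd1, the stearoyl-CoA desaturase, had 83.3, 191, and 483 CPM in the controls and 56.9, 96.7, and 453 CPM in cKOt mice. Its means in control mice were 256 ± 68.2, 214 ± 88.7, 282 ± 132, 144 ± 48.6, 169 ± 18.4, and 204 ± 83.1 CPM. Its means in cKOt mice were 141 ± 100.4, 101 ± 27.1, 124 ± 61.6, 105 ± 88.8, 172 ± 159, and 129 ± 63.3 CPM. The ranges overlapped at every time, and at ZT16 the cKOt mice had 74.7, 95.7, 103, 132, and 453 CPM against 147, 157, 166, 180.5, and 194 CPM in control mice. The difference in log2 was -0.75 ± 0.15 (SE, adjusted p = 2.1e-05). Without the cKOt mouse at ZT16 that the authors' sample sheet marks for removal, which had the value of 453 CPM, it was -0.85. The decreases of Scd1 and Insig1 were of like size over all mice, and with the SE of Scd1 the 2 cannot be ranked. At single times Scd1 passed only at ZT8, with -1.05 (adjusted p = 0.030).

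Fads1, the desaturase of polyunsaturated fatty acids, had 86, 107, and 138 CPM in the controls and 67.6, 82.5, and 108 CPM in cKOt mice. Control means by time were 121 ± 16.7, 113 ± 15.8, 99 ± 11.4, 93.2 ± 8.36, 108 ± 2.54, and 113 ± 18.5 CPM. Means by time in cKOt mice were 85.8 ± 15.5, 84.7 ± 10.0, 79.7 ± 4.74, 81.1 ± 9.05, 79.2 ± 3.94, and 90.7 ± 6.54 CPM. The ranges were apart at ZT8 and ZT16, and the log2 fold change was -0.36 ± 0.042 (SE, adjusted p = 1.2e-10). At ZT8 they nearly touched, with 86.02 CPM in the lowest control mouse and 86.01 CPM in the highest cKOt mouse. Elovl6, which lengthens palmitate, rose in cKOt mice. Its lowest, median, and highest levels were 20.3, 26, and 33.3 CPM in the controls and 26.8, 33.3, and 48.1 CPM in cKOt mice. Control means were 28.2 ± 2.98, 24.9 ± 2.34, 27.9 ± 4.05, 25.4 ± 2.54, 24.6 ± 3, and 27.6 ± 3.31 CPM at the 6 times. In cKOt mice Elovl6 had 32.2 ± 1.64, 34.8 ± 7.4, 35.5 ± 7.21, 32.6 ± 5.78, 33.2 ± 4.94, and 36.9 ± 4.7 CPM. All cKOt mice exceeded all control mice at ZT4 and ZT20, and the log2 fold change was 0.36 ± 0.035 (SE, adjusted p = 7.0e-13). Scd2, Elovl5, and Fads2 had -0.024 ± 0.038 (SE, adjusted p = 0.62), 0.015 ± 0.02 (SE, adjusted p = 0.57), and -0.053 ± 0.031 (SE, adjusted p = 0.16).

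Whether these differences depended on the time of day was examined next. At ZT0, 16 members were lower and 1 (Scap) was higher, against 5.49% and 6.63% of all genes. At ZT4, 9 were lower and 3 higher, against 6.34% and 6.2% of all genes. At ZT8 the members lower and higher were 12 and 3 (9.29% and 10.6% of all genes), and at ZT12 they were 7 and 4 (10.8% and 10.3%). At ZT16 they were 10 and 2 (9.75% and 10% of all genes), and at ZT20 they were 6 and 2 (7.79% and 5.98%). In both directions together, 12.1%, 12.5%, 19.9%, 21%, 19.8%, and 13.8% of all genes were called from ZT0 to ZT20. The count at ZT0 rested in part on single replicate numbers, since it dropped from 17 to 11 without the mice numbered 2 and to 10 without those numbered 4. The median log2 fold change of the members was -0.23 at ZT0 and -0.0051 at ZT12. At ZT0 the log2 fold changes were -1.21 for Insig1, -0.65 (adjusted p = 2.4e-04) for Srebf1, -0.65 (adjusted p = 3.4e-05) for Sqle, and -0.63 (adjusted p = 3.8e-08) for Dhcr7. Scd1 had -0.84 (adjusted p = 0.11) at ZT0 and did not pass, and the sparsely counted Fdps had -0.96 (adjusted p = 0.022). At ZT12 Insig1, Sqle, and Srebf1 had -0.32 (adjusted p = 0.18), -0.20 (adjusted p = 0.24), and -0.0051 (adjusted p = 0.99). The ranges of the 5 control and 5 cKOt mice did not overlap for 6, 6, 9, 5, 5, and 4 of the 35 members from ZT0 to ZT20, against 7.3%, 11.1%, 9.49%, 9.73%, 9.04%, and 6.86% of all genes.

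The test of the difference itself, the interaction of genotype and time, called no member by edgeR, against 3.08% of all genes. At an unadjusted p below 0.05, 8 members passed, against 14.7% of all genes. The smallest were Scd2 (adjusted p = 0.06) and Insig1 (adjusted p = 0.16). DESeq2 called 1 member, Scd2, and limma-trend called none. The counts at single times differed, but a difference between times was thus not shown for these genes by edgeR.

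**Figure D3:**
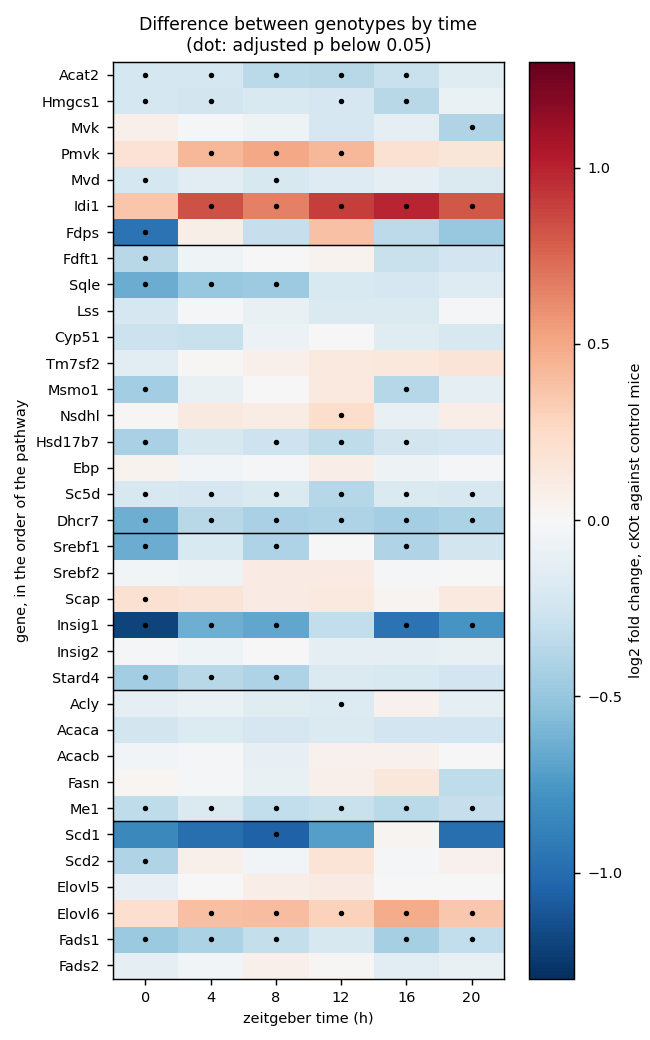
Log2 fold change of the 35 genes (rows, in pathway order, roles separated by lines) in cKOt against control mice at each of 6 zeitgeber times (columns, h). Blue is lower and red higher in cKOt mice, and dots mark an adjusted p below 0.05 by edgeR. Column ZT0 has 17 dots, 16 of them on lower values, and Idi1, Pmvk, and Elovl6 are the rows with repeated dots on higher values.

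Levels over the day were then compared within each genotype. In control mice 22 of 35 members varied over time by the edgeR F test, against 30.6% of all genes, and in cKOt mice 14 did, against 26.6%. The strongest variation in control mice was that of Scd2 (adjusted p = 1.3e-11), Msmo1 (adjusted p = 5.1e-11), and Srebf1 (adjusted p = 2.0e-09), and in cKOt mice that of Scd2 (adjusted p = 5.2e-09), Acly (adjusted p = 1.4e-08), and Srebf1 (adjusted p = 5.1e-06). Insig1 passed in both genotypes, with adjusted p = 4.5e-08 in control and 0.039 in cKOt mice.

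Mice feed mostly in the dark, and the mean of ZT16 and ZT20 was set against that of ZT4 and ZT8. In control mice 13 members were higher in the dark and 1 was lower, against 12.8% and 11.4% of all genes (24.2% together). In cKOt mice 12 were higher and 3 lower, against 12.2% and 12.7% (25% together). Srebf1 rose in the dark by a log2 difference of 0.66 ± 0.093 (SE, adjusted p = 2.7e-07) in control and 0.65 ± 0.095 (SE, adjusted p = 5.8e-07) in cKOt mice. The brain-type desaturase Scd2 rose by 0.64 ± 0.066 (SE, adjusted p = 1.0e-10) and 0.65 ± 0.066 (SE, adjusted p = 8.5e-11), Acly by 0.28 ± 0.043 (SE, adjusted p = 1.9e-06) and 0.38 ± 0.043 (SE, adjusted p = 2.2e-09), and Fasn by 0.51 ± 0.16 (SE, adjusted p = 0.015) and 0.48 ± 0.16 (SE, adjusted p = 0.022). Insig1 rose by 0.56 ± 0.12 (SE, adjusted p = 2.3e-04) in control and 0.34 ± 0.12 (SE, adjusted p = 0.026) in cKOt mice, and Msmo1 by 0.52 ± 0.094 (SE, adjusted p = 2.6e-05) and 0.32 ± 0.094 (SE, adjusted p = 0.0081). Sc5d was the member lower in the dark in both genotypes, with log2 differences of -0.13 ± 0.04 (SE, adjusted p = 0.018) and -0.12 ± 0.04 (SE, adjusted p = 0.024). Pmvk passed in control mice (0.41 ± 0.066, adjusted p = 4.9e-06) and had 0.11 ± 0.064 (SE, adjusted p = 0.21) in cKOt mice. The difference between the genotypes was called for no member by edgeR, against 2.03% of all genes (1.32% lower and 0.714% higher in cKOt mice), and for none by DESeq2 or limma-trend, and 3 members passed at an unadjusted p below 0.05, against 13.3% of all genes. For Pmvk it was -0.30 ± 0.093 (SE, adjusted p = 0.084). In cKOt mice the count of 15 dropped to 7 without the mice numbered 1 and to 9 without those numbered 4.

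Rhythms of 24 h were described with harmonic models, each gene being given to a model when its weight by the Bayesian information criterion reached 0.65. Model 4, an equal rhythm in both genotypes, held 15 members (42.9%, against 25.2% of all genes), model 2, a rhythm in control mice alone, held Pmvk (6.25% of all genes), model 5, an altered rhythm, held Sqle (2.37%), and model 3, a rhythm in cKOt mice alone, held none (3.42% of all genes). Without a rhythm (model 1, 34% of all genes) were 8 members, Hmgcs1, Tm7sf2, Ebp, Insig2, Acacb, Me1, Scd1, and Elovl6, and 10 were not assigned (model 0, 28.7%). A rhythm in at least 1 genotype was given to 17 members, against 37.3% of all genes. Of the 15 shared rhythms, 11 peaked between ZT19 and ZT24, in the second part of the dark phase. The share of all genes of model 4 with a peak in this window was not determined. The paper describes 2 clusters of peak times for its transcripts of this model, so the window is not shown to be particular to these members. Scd2 peaked at ZT19.2, Acly at ZT19.7, Acaca at ZT19.9, Srebf1 at ZT20.0, and Fasn at ZT20.7. Mvd, Lss, Hsd17b7, Msmo1, Srebf2, and Idi1 followed at ZT21.2, ZT21.3, ZT21.6, ZT22, ZT23.4, and ZT23.4. After lights on came Mvk (ZT0.32), Dhcr7 (ZT0.389), and Nsdhl (ZT1.6), and Sc5d peaked in the light phase at ZT7.36. The fatty acid genes and Srebf1 thus came before most of the sterol genes in the fitted order, with standard errors of the control peaks between 0.375 and 1.25 h for these 15 genes, so that neighbours in the order were not distinct.

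The largest peak-to-trough amplitudes (log2) among the shared rhythms were those of Msmo1, with 1.18 in control mice and 0.76 in cKOt mice (SE 0.12), Srebf1, with 0.97 in control mice and 0.79 in cKOt mice (SE 0.13), and Scd2, with 0.84 in control mice and 0.75 in cKOt mice (SE 0.089). Idi1 had 0.84 in control mice and 0.49 in cKOt mice (SE 0.12). The weights for model 4 were 0.6604 for Msmo1 and 0.6575 for Idi1, just above the limit of 0.65, so that an equal rhythm was weakly assigned. Pmvk, the single member in model 2, had an amplitude of 0.53 in control mice and 0.14 in cKOt mice (SE 0.076) and a peak at ZT20.0 in control mice. This assignment was lost without the mice numbered 2 and without those numbered 3, when model 2 held no member. For Sqle the fitted peak was at ZT23.9 ± 0.727 h in control and ZT20.3 ± 0.896 h in cKOt mice (SE), at a weight of 0.667, just above the limit, and model 5 held no member at a weight of 0.8 or without RUVs factors. Insig1 was not assigned, with a weight of 0.502 for model 4 and amplitudes of 1.09 in control mice and 0.54 in cKOt mice (SE 0.15).

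**Figure D4:**
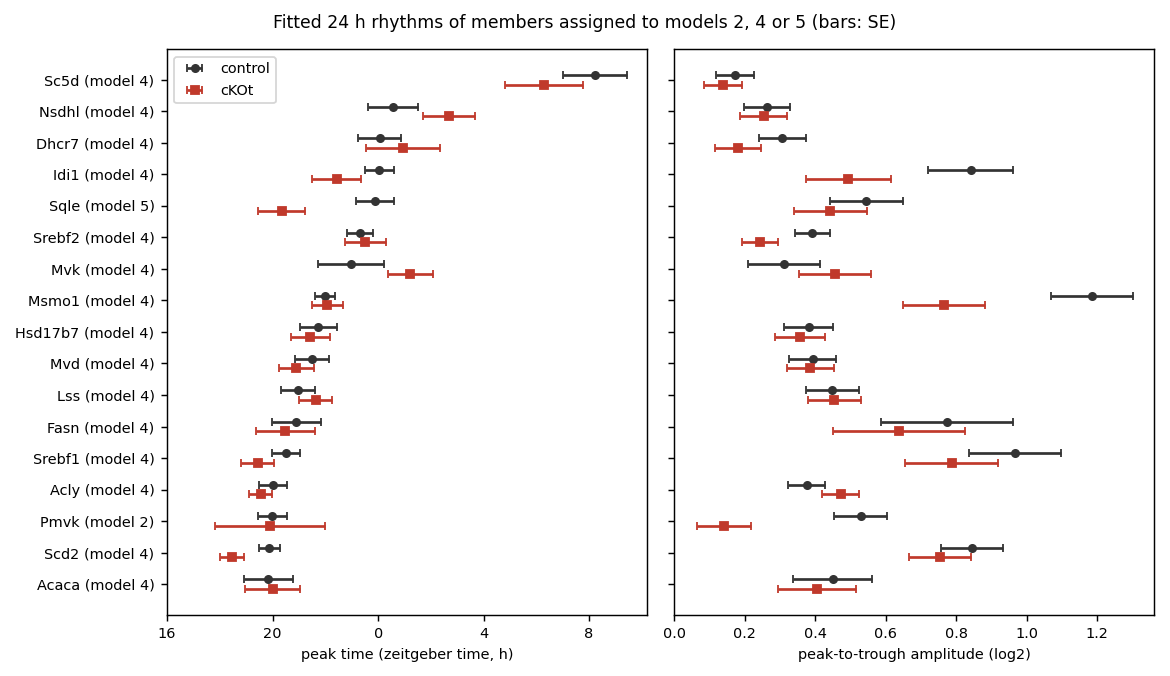
Fitted peak times (left, zeitgeber time in h, continuing past ZT24) and peak-to-trough amplitudes (right, log2) of the 17 members in models 2, 4, and 5 in control (black circles) and cKOt mice (red squares), with SE. Apart from Sc5d all control peaks lie between ZT19.8 and ZT0.573, and the amplitude of Pmvk is 0.53 in control and 0.14 in cKOt mice.

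Mice of the same genotype and time differ among themselves, and the members were compared on these differences (log2 CPM minus the group mean, 60 mice, permutations within groups). Each of the other 15545 genes was tested against Insig1 in the same way, with p-values adjusted over all of them. The median r was 0.22 over the other 34 members and 0.0028 over all genes. Across mice, 3 members followed Insig1 at an adjusted p below 0.05, in the same direction and also by rank, against 4 genes (0.0257%) in all. Msmo1 had Pearson r = 0.77 (permutation p = 1.0e-05, adjusted p = 0.039) and Spearman rho = 0.74 (permutation p = 1.0e-05, adjusted p = 0.039). Fdft1 had r = 0.72, rho = 0.71, and Sqle had r = 0.65, rho = 0.63, at the same p-values. Hsd17b7 and Stard4 did not pass, with r = 0.55, rho = 0.49 (adjusted p = 0.34 for r) and r = 0.49, rho = 0.46 (adjusted p = 0.39 for r). The smallest p that 100000 permutations could give was 1e-05, which limits how many genes can pass over so many. Without the 2 mice farthest from the median of Insig1, Pearson r was 0.71 for Msmo1, 0.68 for Fdft1, and 0.61 for Sqle. Within the 6 batches r of Msmo1 ran from 0.65 to 0.89. Of the fatty acid genes, the values were r = -0.16, rho = -0.054 for Fasn, r = -0.09, rho = -0.053 for Acaca, and r = -0.056, rho = 0.016 for Scd1, and none of them passed. Srebf2 had r = 0.086, rho = 0.20 before and r = 0.47 after correction with RUVs factors, and Srebf1 r = 0.19, rho = 0.28 before and r = 0.54 after it. Neither passed before correction (adjusted p = 0.93 and 0.85 for r), and no p-value was computed after it. The rise was not particular to these genes, since r of Mvd went from 0.047 to 0.42, whereas that of Fdft1 hardly changed (0.724 and 0.719).

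Fat tissue at the kidney makes fatty acids too, and its markers were compared with the members. The 6 adipocyte markers (Adipoq, Plin1, Cidec, Lep, Retn, and Cfd) were all detected and summed to 0.324, 4.11, and 22.9 CPM (lowest, median, and highest) in control and 0.154, 3.2, and 26.5 CPM in cKOt mice. None of them passed the test between genotypes, and Lep was at 0 in 21 mice. Across mice of the same group, 2 of 35 members, Scd1 and Fasn, followed the summed markers by r and by rank, with p-values adjusted over all 15540 other genes. Of these genes, 0.245% passed by r, each of them positive, and 0.187% passed by both. Scd1 had Pearson r = 0.70 (permutation p = 1.0e-05, adjusted p = 0.0074) and Spearman rho = 0.70 (permutation p = 1.0e-05, adjusted p = 0.0086). Fasn had Pearson r = 0.50 (permutation p = 4.0e-05, adjusted p = 0.022) and Spearman rho = 0.51 (permutation p = 7.0e-05, adjusted p = 0.039). Acaca and Elovl6 did not pass, with r = 0.56, rho = 0.46 (adjusted p = 0.09 for r) and r = 0.40, rho = 0.44 (adjusted p = 0.36 for r). Without the 2 mice farthest from the median, r of Scd1 was 0.67, and within batches it ran from 0.52 to 0.93. Insig1 had r = -0.16, rho = -0.12, and Sqle r = -0.13, rho = -0.16. In alternatives chosen after seeing the data, the log2 fold changes between genotypes without the 8 mice above 10 CPM of these markers (4 of each genotype) were -0.99 for Scd1, -0.30 for Acaca, 0.35 for Elovl6, and -0.77 for Insig1, and with the markers as a covariate they were -0.71, -0.19, 0.37, and -0.78. For Fasn the genotype log2 fold change of -0.034 became -0.144 (adjusted p = 0.0824) without these mice and 0.0125 with the covariate, so that it was called in neither.

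**Figure D5:**
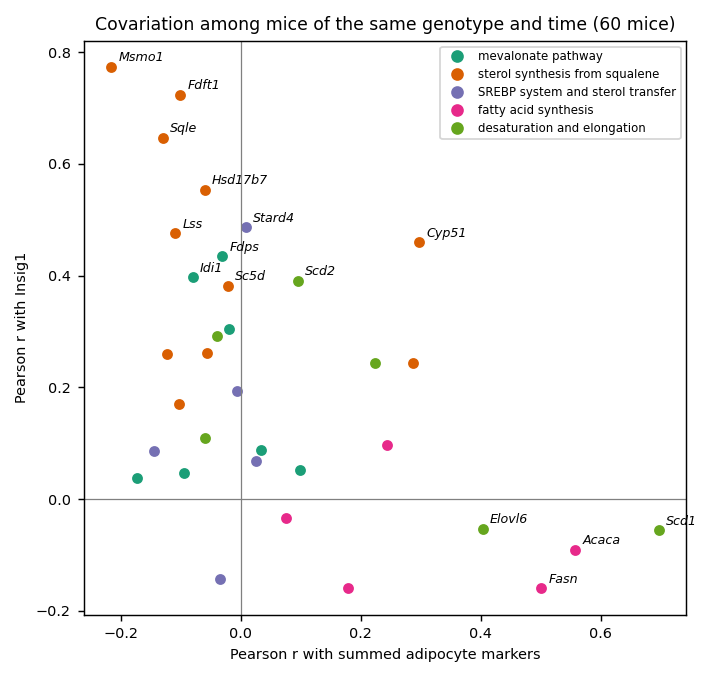
Pearson r of 34 members with Insig1 (y axis) and with the summed adipocyte markers (x axis), over 60 mice after subtraction of group means, coloured by role. Msmo1, Fdft1, and Sqle lie high on the axis of Insig1, at 0.77, 0.72, and 0.65, and Scd1, Acaca, and Fasn lie far to the right, at 0.70, 0.56, and 0.50, where their values for Insig1 are -0.056, -0.09, and -0.16.

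Genes at the borders of the pathway were counted from lists, beside the 50% of all genes called between genotypes (26.8% higher and 23.2% lower). Of 13 genes of SREBP processing and its cofactors, 4 were higher and 3 lower, and only Mlx, partner of the carbohydrate response factor, passed the fold change of 1.2, as 16.1% of all genes did. Mlx had 71.5 ± 5.13 CPM in control mice against 58.6 ± 3.69 CPM in cKOt mice, a log2 difference of -0.29 ± 0.02 (SE, adjusted p = 1.6e-18). Rxra, the retinoid X receptor, had 138 ± 17.2 CPM in control mice against 119 ± 18.9 CPM in cKOt mice, a log2 difference of -0.19 ± 0.02 (SE, adjusted p = 5.7e-12). Of 12 genes of the isoprenoid branches, 4 were higher and 4 lower, among them Dhdds, of dolichol synthesis, with a log2 fold change of -0.28 ± 0.02 (SE, adjusted p = 6.1e-18). Of 11 genes of sterol transport, esterification, and oxidation, 3 were higher and 5 lower. Soat1, which esterifies cholesterol, rose from 34 ± 3.13 CPM in control mice to 44.8 ± 3.72 CPM in cKOt mice, a log2 difference of 0.39 ± 0.026 (SE, adjusted p = 6.3e-19). Cyp7b1, which hydroxylates oxysterols, had 260.0 ± 41 CPM in control mice against 369.5 ± 66.7 CPM in cKOt mice, a log2 difference of 0.48 ± 0.049 (SE, adjusted p = 3.2e-12). Of 17 retained genes of fatty acid activation, elongation, and glycerolipid assembly (of 19 listed), 4 were higher and 5 lower, including Dgat2 (-0.32 ± 0.022, adjusted p = 2.7e-18), which makes triglyceride, and Hacd2 (-0.23 ± 0.026, adjusted p = 3.6e-11). In NADPH supply 2 of 6 were higher and 3 lower, including Idh1 (-0.26 ± 0.031, adjusted p = 4.9e-10) and Me3 (0.19 ± 0.025, adjusted p = 6.8e-09). In mitochondrial fatty acid synthesis 3 of 5 were higher and none was lower, including Mcat (0.17 ± 0.025, adjusted p = 4.0e-08) and Cbr4 (0.15 ± 0.026, adjusted p = 4.5e-06). The shares called in these 6 lists were 53.8%, 66.7%, 72.7%, 52.9%, 83.3%, and 60%, and median log2 fold changes were 0.012, -0.019, -0.079, 0.026, -0.03, and 0.085, against 0.012 over all genes.

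Markers of other cell types moved with genotype as well, and their part in the results above was not tested. All 4 endothelial, all 3 fibroblast, and all 4 macrophage markers were lower in cKOt mice, where 50% of all genes were called and 23.2% were lower, and the summed macrophage markers ranged from 17.5 to 44.5 CPM (median 28.4) in control and from 16.3 to 30.2 CPM (median 23.7) in cKOt mice. Endothelial markers ranged from 328 to 406 and from 283 to 368 CPM, and fibroblast markers from 41.0 to 125 and from 45.6 to 110 CPM. Proximal tubule markers were called higher for 3 and lower for 3 of 7, thick ascending limb markers for 2 and 1 of 3 (Umod being the lower one), distal convoluted tubule markers for 2 and 0 of 2, and collecting duct markers for 2 and 1 of 5. No podocyte marker passed. The summed markers of the thick ascending limb had medians of 4434 CPM in control mice and 3648 CPM in cKOt mice, with Umod at -0.41 ± 0.038 (SE, adjusted p = 1.2e-13), and Slc13a3 of the proximal tubule had -0.66 ± 0.04 (SE, adjusted p = 7.4e-21). Of 3 liver genes detected in the kidney 2 were lower, Alb at -2.92 ± 0.12 (SE, adjusted p = 8.0e-28) and Serpina1a at -1.68 ± 0.098 (SE, adjusted p = 2.0e-21), and Apoa1 had 0.45 ± 0.20 (SE, adjusted p = 0.056) and did not pass. Of the injury markers Lcn2 passed (0.23 ± 0.10, adjusted p = 0.047) and Havcr1 did not. Of 6 adrenal markers, 2 (Star and Akr1b7) were retained and did not pass, and the steroidogenic enzymes Cyp11b1 and Cyp11b2 were at 0 in 59 and 60 mice.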

How the data were processed

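The authors sequenced poly(A) RNA (stranded, single reads) and deposited raw read counts per Ensembl gene, 1 file per mouse. The submitters' processing notes name bcl2fastq, cutadapt 1.8, STAR 2.5.3a, HTSeq 0.9.1, and GRCm38. The annotation release and the strand setting of the counting are not given in the sources used here. Reads without a gene took 7.17 to 10.6% and ambiguous reads 0.953 to 1.27% of counted reads, and were left out. The study kept 5 of 6 mice per group, chosen by RNA integrity and distance between samples.

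Counts were analysed with edgeR 4.0.16 in R 4.3.3 (TMM library sizes, a minimum of 1 CPM in any 1 mouse, 12 groups and 2 RUVs factors in 1 fit, quasi-likelihood F test, Benjamini-Hochberg threshold of 0.05 over all 15546 genes). All 60 mice shared 1 estimate of spread, and p-values measure the spread between mice that is left after the 2 RUVs factors. These factors were themselves estimated from differences between mice of the same group. Without them 6380 genes in place of 7778 passed the genotype test. RUVs and the harmonic model choice (log2 CPM with a prior count of 2, period of 24 h, weight of at least 0.65) were rewritten from their descriptions, so that values can differ from the original packages. Alternatives were DESeq2 1.42.0, limma 3.58.1, other filters and size factors, RUVs settings, library batch, a replicate block, and left-out mice. The batches (6, of 9 to 12 mice with both genotypes in each) are those of the study's sample sheet. The scripts were tested on simulated counts. None of 120 pairs of replicates within groups compared for duplication was identical. The members, lists, and tests were chosen with earlier results of these data known. Group values are given for members with a fold change above 1.2 in the genotype test, an interaction, or a rhythm in model 2, 3, or 5, and for Srebf1, Srebf2, Insig1, and Insig2. From the other lists the 2 genes with the smallest p are named, except that 1 of them is not reported here. Symbols were available for 55154 of 55335 IDs.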

Additional observations from a re-analysis of the deposited data

Results flagged for a closer look

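Of 180 groups of 5 mice (15 genes, 12 groups), 17 held 1 mouse that lay far from the other 4 by Dixon's test at the 95% level. Chance gives about 1 in 20 groups. Scd1 had 4 of these among cKOt mice, each high. Its levels were 232.5 CPM at ZT8 (the others 87.4 to 114), 263.2 CPM at ZT12 (56.9 to 68.8), 453.4 CPM at ZT16 (74.7 to 132), and 239.8 CPM at ZT20 (88.4 to 115). The summed adipocyte markers of these mice were 7.33, 26.5, 12.9, and 21.0 CPM, and their part in the values was not tested. The mouse at ZT16 is the one marked for removal in the study's sample sheet.

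Srebf1 and Srebf2 were both high in the same control mouse at ZT16, with 74.5 CPM of Srebf1 (the others 38.0 to 40.4) and 88.19 CPM of Srebf2 (52.9 to 61.3). Srebf2 was low in 1 control mouse at ZT12, with 38.41 CPM (46.6 to 49.2), and in 1 cKOt mouse at ZT0, with 55.51 CPM (68.3 to 71.2). Insig1 was low in 1 cKOt mouse at ZT16, with 32.29 CPM (42.7 to 46.0). Insig2 was high in 1 cKOt mouse at ZT4, with 70.41 CPM (59.4 to 62.2), and low in 1 control mouse at ZT16, with 55.5 CPM (61.0 to 63.2).

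Idi1 was low in 1 mouse of each genotype at ZT8, with 16.58 CPM in control (20.5 to 22.1) and 20.18 CPM in cKOt mice (32.4 to 34.5). Acat2 was high in 1 control mouse at ZT8, with 137.0 CPM (111 to 118), and in 1 cKOt mouse at ZT16, with 124.3 CPM (100.2 to 107). Hsd17b7 reached 42.38 CPM in 1 cKOt mouse at ZT20 (33.6 to 34.9). Elovl6 reached 48.14 CPM in 1 cKOt mouse at ZT8 (30.2 to 33.8).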

How the results depend on the processing

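Of the comparisons of counts with alternatives, 297 kept within 1.5 times the value reported and 37 did not, and the cause was not tested. Without RUVs factors, 3 members in place of 5 were higher in cKOt mice, 6 in place of 12 passed at ZT4, and model 5 held 0. With batch in their place, 7 passed at ZT4 and 9 in place of 15 at ZT8. The DESeq2 test called 1 interaction in place of 0. At a weight of 0.5, model 0 held 3 members and model 2 held 2, and at 0.8 model 0 held 17, model 1 held 5, and model 5 held 0. Without the marked cKOt mouse at ZT16 or without the mice above 10 CPM of adipocyte markers, model 2 held 2 and model 5 held 0. With each replicate number left out in turn, members lower in cKOt mice numbered 18 to 21 and members higher 4 to 5. Interactions numbered 0 to 1 (Scd2 without number 3, Insig1 without number 5), dark-phase calls in cKOt mice 7 to 15, their differences between genotypes 0 to 1 (Pmvk without number 1), and calls at ZT0 10 to 18. Model 0 held 6 to 14, model 2 held 0 to 6, model 3 held 0 to 1, and model 5 held 0 to 4 members. Of the comparisons of single genes with alternatives, 1971 kept their direction and stayed called or uncalled as reported, 236 lost the call, 1 gained it, and 16 turned in direction. Only uncalled genes turned in direction. With batch in place of RUVs factors the log2 fold change was 0.00706 for Ebp and -0.0211 for Srebf2, and without the factors -0.00746 for Srebf2. With adipocyte markers as a covariate it was 0.00931 for Ebp, 0.00512 for Acacb, and 0.0125 for Fasn. With replicates left out it ran from -0.0219 to 0.0125 for Ebp, from -0.0133 to 0.0395 for Srebf2, from -0.0432 to 0.0405 for Acacb, from -0.0992 to 0.0629 for Fasn, and from -0.0065 to 0.0348 for Elovl5. Same-numbered mice of different groups did not deviate together (mean r of 0.00433 over 330 pairs, against -0.00103 over 1320 others), and the replicate block left 21 members lower and 4 higher, Nsdhl being lost at an adjusted p of 0.0511.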
